A study of Homo sapiens with 6 samples.

Results

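Cytosolic ribosomal proteins are the protein part of the ribosome, the particle that translates mRNA. The genes were chosen by their names alone: rows of the count table whose symbol is Rps or Rpl followed by a number with the usual suffixes, together with Rpsa, Rplp0, Rplp1, Rplp2 and Fau. This gave 85 of the 22989 genes listed. They were 31 small-subunit proteins, 43 large-subunit proteins, 3 proteins of the acidic stalk and 8 like-named genes, most of them paralogs that carry an added l in the symbol. Without the like-named genes there were 77, called core members here.

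RNA-seq counts were compared between 3 libraries labelled LINC00115 KD and 3 labelled WT, all from paclitaxel-resistant breast cancer stem-like cells (BCSC) of MDA-MB-231, a human triple-negative breast cancer line. The KD cells carried a short hairpin RNA against the long noncoding RNA LINC00115, and the paper writes shC, a control hairpin, where the labels write WT. The BCSC were cells with high aldehyde dehydrogenase activity sorted from a single cell line. The labels do not say that the 3 libraries of a group came from separate cultures, and the paper speaks of independent experiments only in general for the figure that holds these data. P-values thus measure the spread between these libraries, which may be technical. LINC00115 itself was not measured, since no row carries its name.

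Ribosomal proteins are made in step with ribosomal RNA, which RNA polymerase I transcribes and biogenesis factors process in the nucleolus. In mammals most of their mRNAs begin with a C followed by a run of pyrimidines, the 5′ terminal oligopyrimidine (TOP) tract. TOP mRNAs are translated under the control of mTOR, and LARP1 binds their capped 5′ end. MYC is a known driver of the genes for ribosomal proteins and biogenesis factors.

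The libraries held 36979221 to 38799331 counts. Among the markers of the labelled cells, the epithelial keratins Krt8 (472 ± 5.52 in WT and 752 ± 23.2 in KD, normalized CPM, SD, n = 3) and Krt18 (129 ± 0.586 and 236 ± 5.60) were present and higher in KD. Krt19, Epcam and the aldehyde dehydrogenase gene Aldh1a3 were too low to be tested. Aldh1a1 was at 0.327 ± 0.119 in WT and 1.16 ± 0.158 in KD (normalized CPM, SD, n = 3). The 9 markers of the labelled cells summed to 4923 to 5006 CPM in WT and 5472 to 5647 CPM in KD, most of it Vim. Of the receptors whose absence defines triple-negative cells, Erbb2 was at 17.0 ± 1.27 and 27.6 ± 0.534, Esr1 at 0.698 ± 0.0678 and 2.56 ± 0.285, and Pgr was too low to be tested. Normalized CPM are counts scaled to CPM on a library total adjusted by TMM. Sums of markers are CPM on the library total without that adjustment, and all other levels below are normalized CPM. The table names 4648 rows with Gm symbols and 1129 with Rik symbols, which are mouse naming styles, although the labels give human cells. Of 12 lung markers, 12 were higher in every KD library than in any WT library. Their sum was 1.75 to 2.12 in WT, where 7 of them (Scgb1a1, Scgb3a1, Scgb3a2, Sftpa1, Sftpb, Sftpc and Sftpd) had no count, and 75.2 to 85.7 in KD. Of 12 kidney markers 9 were higher in every KD library, with 7 at 0 in all WT libraries and sums of 16.8 to 19.5 against 45.0 to 48.8. Of 10 leukocyte markers 4 were higher in every KD library, beside 37.8% of all genes tested. Their sums were 72.2 to 87.2 against 143 to 159, with no count of Cd3e in any library. The part of the lung, kidney and leukocyte markers in the results below was not tested.

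The start of the mRNA is where ribosomal protein genes carry their shared sequence, so it is shown for the genes that the results turn on. The windows come from RefSeq (GRCh38.p14), matched to the table by symbol without regard to case, and are human sequence whatever the species of the row. Each holds 15 bases before the annotated start and the first 15 transcribed bases, 5′ to 3′ on the gene's strand, with the pyrimidine run that begins at the start in capitals. The first 5 belong to members among the largest falls, the next 4 to members with smaller changes or none past the test, and the last 6 to parents and their like-named genes.
Rps28 (chr19:8321481-8321510, plus strand): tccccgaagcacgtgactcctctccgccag
Rps18 (chr6:33272060-33272089, plus strand): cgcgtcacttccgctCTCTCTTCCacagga
Rpl21 (chr13:27251543-27251572, plus strand): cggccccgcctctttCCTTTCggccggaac
Rpl29 (chr3:51995881-51995910, minus strand): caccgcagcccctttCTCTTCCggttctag
Rpl14 (chr3:40457324-40457353, plus strand): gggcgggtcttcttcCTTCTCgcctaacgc
Rps6 (chr9:19380222-19380251, minus strand): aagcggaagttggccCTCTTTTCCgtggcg
Rpl34 (chr4:108620561-108620590, plus strand): aaaggcttttttcttCCTCTTCCggggacg
Rps7 (chr2:3575245-3575274, plus strand): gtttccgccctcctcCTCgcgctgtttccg
Rplp0 (chr12:120201097-120201126, minus strand): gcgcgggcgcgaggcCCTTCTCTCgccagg
Rpl22 (chr1:6199581-6199610, minus strand): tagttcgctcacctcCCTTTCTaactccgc
Rpl22l1 (chr3:170870181-170870210, minus strand): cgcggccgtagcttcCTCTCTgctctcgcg
Rps27 (chr1:153990747-153990776, plus strand): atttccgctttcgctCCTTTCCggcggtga
Rps27l (chr15:63157463-63157492, minus strand): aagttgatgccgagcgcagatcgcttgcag
Rpl36a (chrX:101390996-101391025, plus strand): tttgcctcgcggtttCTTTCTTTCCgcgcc
Rpl36al (chr14:49620612-49620641, minus strand): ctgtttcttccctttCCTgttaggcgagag

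In these windows Rps18, Rpl21, Rpl29 and Rpl14 begin with C and a run of pyrimidines, and so do Rpl34, Rps6 and Rplp0, while the run of Rps7 is short. The window of Rps28 has a at its annotated start, and a pyrimidine run begins at the next base. Among the pairs, Rpl36a and Rps27 carry the run, while Rpl36al has a short one and Rps27l has none, and in the pair of Rpl22 and Rpl22l1 both genes carry it. The counts over all members with a RefSeq window are given with the promoter letters below.

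Messenger RNAs of ribosomal proteins were lower in KD almost throughout. Of the 85 genes 83 passed the filter on low counts, and 75 of them were lower at an adjusted p under 0.05 (edgeR quasi-likelihood test, Benjamini-Hochberg over 13497 genes), beside 36.7% of all genes tested. Only Rpl36al was higher, a direction that 36.7% of all genes took, and 7 did not pass. The median log2 fold change was −0.50, a level 29.5% lower in KD, while the median of all genes tested was −0.01. KD lay below WT in every library for 76 genes (37.8% of all genes tested), above WT in every library for 2 (37.8%), and the groups overlapped for 5. In bulk libraries, a smaller share of cells with a high level and less RNA per cell cannot be told apart.

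The falls were mostly moderate. At a fold change over 2 only 5 members were called lower, beside 9.98% of all genes tested called lower, and none was called higher, beside 10.2%. Of the 77 core members, 5 fell by more than 50%, 14 by 40 to 50%, 21 by 30 to 40% and 18 by 20 to 30%. Another 12 were 10 to 20% lower, 6 were up to 10% lower and 1 was above WT. The changes were unequal: the SD among core members was 0.308 on the log2 scale, while the median standard error of a single gene was 0.0338.

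The share of the library taken by these genes showed the same shift. They took 4.28%, 4.38% and 4.50% of the counts in the WT libraries (4.39% ± 0.106, SD, n = 3) and 3.16%, 3.08% and 3.13% in the KD libraries (3.12% ± 0.0390, SD, n = 3). The lowest WT library was well above the highest KD library, and the ratio of the means was 0.712. Small-subunit genes went from 1.58% to 1.11%, large-subunit genes from 2.49% to 1.77% and the stalk from 0.260% to 0.200%. The counts on small-subunit genes relative to large-subunit genes were 0.635 ± 0.00115 in WT and 0.629 ± 0.00676 in KD (SD, n = 3), a difference of the size of the KD spread.

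**Figure D1:**
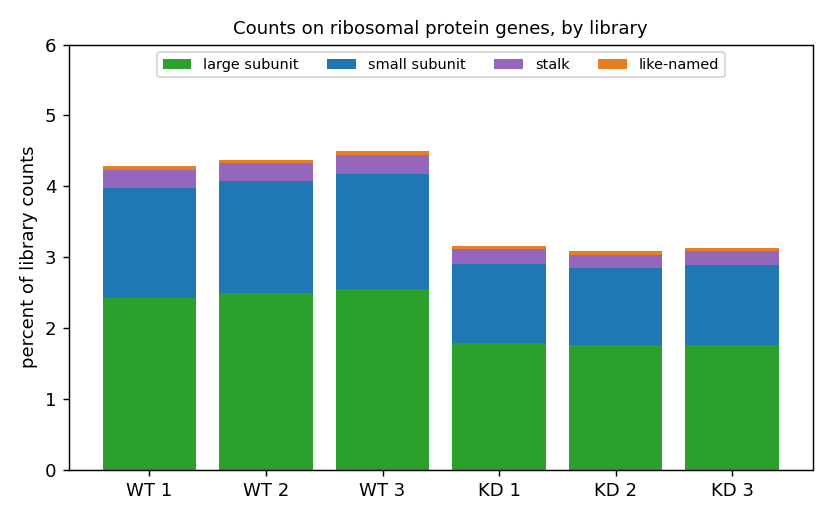
Percent of each library's counts (y axis) that fell on ribosomal protein genes in the 3 WT and 3 KD libraries, stacked by subunit. The WT bars reach 4.28 to 4.50% and the KD bars 3.08 to 3.16%.

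Members moved together within the libraries too, but far less than between the groups. The median member deviated from its WT mean by −0.05, 0.00 and 0.04 on the log2 scale in the 3 WT libraries and by −0.49, −0.53 and −0.48 in the KD libraries. WT replicate 1 was below the WT mean for 80 of the 83 genes and WT replicate 3 for 2. The shift within WT was thus shared by most members, and the KD libraries lay far outside it.

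In the small subunit 29 of 31 genes were lower, with a median of −0.52. The largest fall was that of Rps28, a protein of the head of the subunit near the path of the mRNA. Its level was 285, 278 and 297 in WT and 112, 113 and 112 in KD, a log2 fold change of −1.35 (SE 0.0376, adjusted p = 2.54e-26, edgeR). The 3 KD values were nearly equal and far below the WT range. Rps18, also in the head, was at 132, 134 and 145 in WT and at 57.1, 53.2 and 60.8 in KD (−1.26, SE 0.0498). Rps27 went from 302, 309 and 335 to 166, 164 and 167 (−0.93, SE 0.0381). All 3 genes were separated between the groups.

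Rps26, which contacts the mRNA and is mutated in Diamond-Blackfan anemia, was at 500.3, 533 and 538 in WT and 293, 282 and 302 in KD (−0.84, SE 0.0352). Rps19, the first gene linked to that anemia, was at 378, 395 and 402 against 286, 265 and 279.9 (−0.50, SE 0.0353). Both fell without overlap. Rpsa, also known as the laminin receptor, was at 1942, 2025 and 2047 in WT and 1338, 1303 and 1333 in KD (−0.60, SE 0.0287).

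Rps6, the substrate of the S6 kinases, changed little. It was at 551, 553 and 570.4 in WT and at 529, 539 and 524 in KD, a log2 fold change of −0.07 (SE 0.0313, adjusted p = 0.0347, edgeR). The groups did not overlap, but the adjusted p was 0.0578 with DESeq2's size factors and 0.0516 with no filter on low counts, and reached 0.173 without KD replicate 3. Rps14 was at 377, 395 and 413 against 392.4, 353 and 389 (adjusted p = 0.137, edgeR). Rps7 was at 254, 266 and 268 against 276, 259 and 274 (adjusted p = 0.335, edgeR). For both the groups overlapped.

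Proteins made as fusions were lower as well. Rps27a is translated with ubiquitin at its front, and was at 772, 836 and 832 in WT and 639.9, 549 and 619 in KD (−0.43, SE 0.0398). Fau, in which Rps30 follows a ubiquitin-like protein, was at 322, 314 and 324 against 218, 202 and 215 (−0.59, SE 0.0358). The KD values of both lay below the WT values.

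In the large subunit 41 of 43 genes were lower, with a median of −0.56. Rpl21 had the largest fitted fall at a low level, with 17.1, 22.2 and 21.5 in WT and 8.20, 10.1 and 6.27 in KD (−1.31, SE 0.123, adjusted p = 1.56e-11, edgeR). Rpl29, a surface protein of the subunit, was at 70.2, 78.1 and 73.4 against 32.8, 29.7 and 30.5 (−1.25, SE 0.0582). Rpl30, at the interface with the small subunit, was at 348, 349 and 373 against 151, 153 and 149.9 (−1.24, SE 0.0363). In each of them the highest KD library was below the lowest WT library.

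Rpl14 came next, just short of a fold change of 2, with 469.9, 485 and 503 in WT and 247, 247 and 241 in KD (−0.99, SE 0.0341). Rpl5 and Rpl11 bind 5S rRNA together and, outside the ribosome, bind MDM2. Rpl5 was at 949, 988 and 1007 in WT and 769, 764 and 761 in KD (−0.36, SE 0.0304). Rpl11 was at 498, 505 and 527 against 345, 334 and 337 (−0.59, SE 0.0330), a larger fall than that of its partner. The log2 ratio of Rpl11 to Rpl5 counts was −0.94 ± 0.0201 in WT and −1.17 ± 0.0183 in KD (SD, n = 3), without overlap (two-sided exact permutation test, p = 0.1, the smallest possible with 3 against 3; adjusted p = 0.133 over 4 ratios chosen after their values were seen).

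The large-subunit genes that did not pass were Rpl27 and Rpl34. Rpl34 was at 224, 227 and 234 in WT and 219.9, 226 and 221 in KD, a log2 fold change of −0.04 (SE 0.0354, adjusted p = 0.337, edgeR). Rpl27 was at 362, 357 and 375 in WT and 363, 359 and 319.6 in KD (−0.07, SE 0.0386, adjusted p = 0.101, edgeR), and only KD replicate 3 lay under the WT range. The smallest fall that passed in this subunit was that of Rpl8, at 1325, 1432 and 1440 against 1262, 1239 and 1292 (−0.15, SE 0.0314).

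The stalk, which recruits the translational GTPases, was lower in each of its 3 genes. Rplp0, the base of the stalk, was at 1075, 1086 and 1092 in WT and 887, 873 and 886 in KD (−0.30, SE 0.0289). Rplp1 was at 1056, 1043 and 1104 against 876, 807 and 889 (−0.32, SE 0.0336), and Rplp2, with which it forms a dimer, at 422, 427 and 439.6 against 281, 264 and 281 (−0.64, SE 0.0343). The log2 ratio of Rplp2 to Rplp0 counts was −1.34 ± 0.0199 in WT and −1.68 ± 0.0390 in KD without overlap (exact permutation test, p = 0.1, adjusted p = 0.133), whereas that of Rplp1 to Rplp0 was −0.02 ± 0.0369 and −0.04 ± 0.0632 (p = 0.7, adjusted p = 0.7, same test). The ratio of Rplp2 to Rplp1 was not tested. With the test against a fold change of 1.2 Rplp0 did not pass (adjusted p = 0.0744, edgeR).

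Pairs of a like-named gene and its parent were used only where both had at least 10 counts in every library. Rpl39l and Rpl3l fell short of this, and Rpl10l and Rps4l had no row. In 3 of the 4 pairs left, the parent fell and the like-named gene rose or did not pass the test. Rps27l, however, passed as lower under some alternatives. Rpl36al, a paralog of Rpl36a, was at 60.3, 64.6 and 65.9 in WT and 96.8, 96.8 and 96.3 in KD (0.60, SE 0.0473, adjusted p = 1.40e-13, edgeR), while Rpl36a was at 231, 227 and 249 against 125, 129 and 129 (−0.88, SE 0.0395). The KD values of the paralog were above, and those of the parent below, every WT value. Of the counts on both genes, Rpl36al took 21.3% ± 0.777 in WT and 43.1% ± 0.455 in KD (SD, n = 3).

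Rpl22l1, the paralog of Rpl22, was at 25.4, 26.3 and 28.0 in WT and 28.5, 30.4 and 29.1 in KD (0.14, SE 0.0705, adjusted p = 0.0653, edgeR). It lay above WT in every KD library, and it passed without WT replicate 3 (0.18, adjusted p = 0.0382, edgeR). Rpl22 was at 319, 316 and 319.7 against 195, 188 and 192 (−0.73, SE 0.0343). The share of Rpl22l1 in the counts of the pair went from 7.70% ± 0.327 to 13.3% ± 0.607.

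Rps27l, a known target of p53 that resembles Rps27, was at 84.6, 89.1 and 87.0 in WT and 78.6, 79.8 and 85.9 in KD (−0.09, SE 0.0471, adjusted p = 0.0753, edgeR). Its groups overlapped, and it passed as lower under 4 alternatives: upper-quartile scaling (−0.13, adjusted p = 0.00999, edgeR), library size alone (adjusted p = 0.0295), without WT replicate 1 (adjusted p = 0.0387) and without KD replicate 3 (adjusted p = 0.0367). It took 21.6% ± 0.910 of the counts of the pair in WT and 33.0% ± 0.946 in KD. Rpl7l1 was at 199, 207 and 215 against 154, 151 and 161 (−0.41, SE 0.0393), close to its parent Rpl7 at 893, 938 and 963 against 718, 719 and 709.9 (−0.38, SE 0.0314), and its share was 18.2% ± 0.105 and 17.8% ± 0.611. This was the pair of the 4 in which parent and like-named gene moved alike.

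The ratio of like-named gene to parent needs no scaling between libraries. It was 2.81-fold higher in KD for Rpl36al, 1.84-fold for Rpl22l1 and 1.78-fold for Rps27l, each without overlap of the groups, and 0.978 times the WT ratio for Rpl7l1 with overlap. In the two-sided exact permutation test the first 3 had p = 0.1, the smallest that 3 against 3 libraries allow, and adjusted p = 0.133 over the 4 pairs, and Rpl7l1 had p = 0.4. With 3 against 3 libraries this permutation test cannot reach 0.05, whatever the size of the difference. How reads that match both genes of a pair were counted is not stated, and the likeness of their sequences was not measured.

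**Figure D2:**
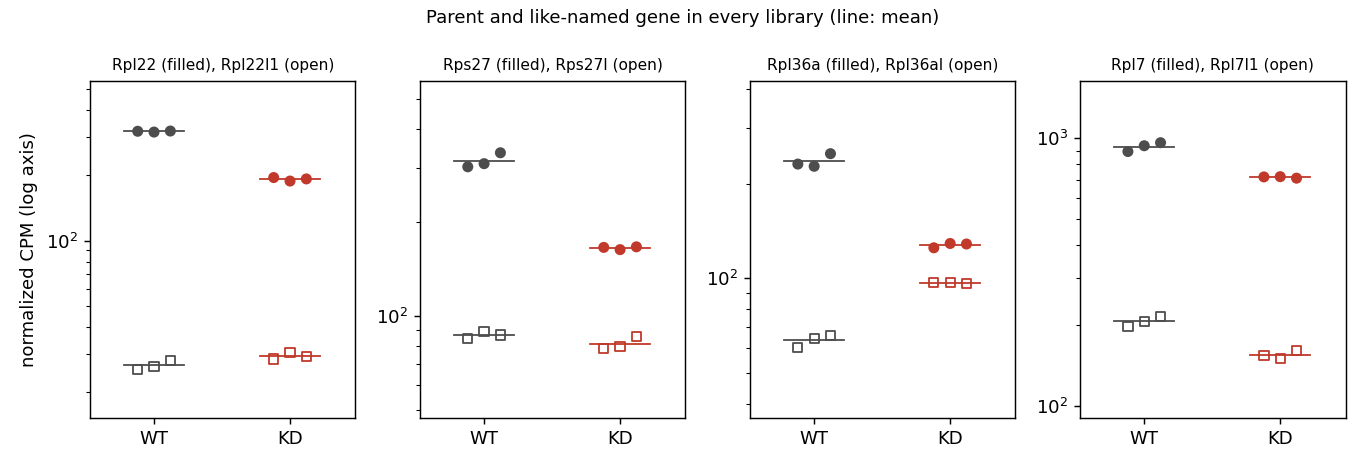
Normalized CPM (log y axis) of 4 parents (filled circles) and their like-named genes (open squares) in every WT (grey) and KD (red) library, with group means as lines. Rpl22, Rps27 and Rpl36a are lower in KD while Rpl36al is higher, and Rpl7 and Rpl7l1 are both lower.

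Rpl6l and Rpl32l were not among the pairs, and neither was spared beside the gene it is named after. Rpl6l was lower (−0.35, SE 0.0446), beside −0.17 (SE 0.0304) for Rpl6. Rpl32l, at 0.68 to 1.62 normalized CPM, did not pass (−0.79, SE 0.373, adjusted p = 0.055, edgeR), beside −0.65 (SE 0.0327) for Rpl32. Rpl39l and Rpl3l did not pass the filter: Rpl39l had 1 count in WT replicate 3 and 0 elsewhere, and Rpl3l had 1 count in each of WT replicates 1 and 3 and 0 in the other libraries. Outside the naming rule Rps3a1, the row for a small-subunit protein, was at 908, 934 and 945 in WT and 615, 626 and 630.1 in KD (−0.57, SE 0.0303). Of the 10 tested rows with a ribosomal protein name outside the rule 4 were lower and 2 higher, with a median of −0.13, beside 36.7% of all genes tested in each direction. They held Rps19bp1, which encodes a binding protein and not a ribosomal protein (0.49, SE 0.0645), Rps27rt (−0.65, SE 0.0826) and the pseudogene-named Rps15a-ps5 (−1.98, SE 0.325) and Rpl34-ps1 (0.40, SE 0.105), for which reads from the parent genes cannot be told apart.

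Coding length was compared because small proteins make up the family. It was taken from the human annotation (GENCODE v44 on GRCh37) by symbol, and was found for 81 of the 83 members and for 81.7% of all genes tested. Other genes were set in classes of coding length, beside 36.7% of all genes lower and 36.7% higher. Up to 300 bases 58.8% of 211 genes were lower and 22.8% higher (median −0.30), and from 301 to 450 bases 50.3% of 447 were lower and 24.8% higher (−0.24). From 451 to 600 bases 39.7% of 647 were lower and 34.3% higher (−0.04), near the share of all genes. Members were lower in each class, with medians of −0.50 (10 genes), −0.64 (30 genes) and −0.52 (19 genes).

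At 601 to 900 bases, where the median of 1485 other genes was 0.04, all 19 members were lower with a median of −0.38. The 3 members of 901 to 1300 bases had a median of −0.27, beside 0.05 for 2150 other genes. Across the 77 core members the log2 fold change rose with the logarithm of coding length (Pearson r = 0.307, Spearman rho = 0.351, across genes that share the same libraries and are not replicates). The same values were 0.0506 and 0.0863 for spliced transcript length, and 0.374 and 0.170 for the WT level. Among other genes of up to 1281 bases with at least 100 normalized CPM in WT, 51.4% of 866 were lower and 33.1% higher (median −0.10). Of 74 core members at that level 94.6% were lower. The part of length or level in the result was not tested.

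The letters at the start of the mRNA were counted over all members with a RefSeq promoter, 66 of 85. A C at the annotated start followed by at least 4 pyrimidines was present in 43 of them (65.2%), beside 4.07% of 35116 promoters. With a shift of up to 5 bases either way it was present in 78.8% of members and 21.1% of promoters. In the whole window of 250 bases before to 50 after the start, on either strand, CCGGAAG was in 33.3% of members and 10.3% of promoters, AAGATGG in 15.2% and 5.84%, and TATAAA in 9.09% and 11.5%.

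Members with that start were lower in 40 of 43 cases, with a median of −0.59 and quartiles of −0.75 and −0.40. The 23 members with another start were lower in 19 cases, with a median of −0.33 and quartiles of −0.57 and −0.23, so the ranges ran into each other. Among 447 other genes with that start 40.5% were lower, with a median of 0.00, beside 36.8% and 0.02 for 8366 genes with another start. These classes, too, rest on the first promoter listed for each gene. No test was made of these differences.

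Other mRNAs known to carry a TOP tract were mildly lower. Of 19 such genes 14 were lower, 2 higher and 3 did not pass, beside 36.7% of all genes tested in each direction. The median was −0.21, with no fold change over 2. Eef1a1, the elongation factor that brings tRNA to the ribosome, was at 6678, 6912 and 6993 in WT and 4722, 4917 and 4858 in KD (−0.51, SE 0.0257). Eef1g, a subunit of its exchange factor, fell more (−0.64, SE 0.0331). Rack1, a scaffold on the small subunit, was at 1123, 1148 and 1157 against 1027, 1029 and 1075 (−0.13, SE 0.0297). Gas5, a noncoding host of small nucleolar RNAs, rose (0.28, SE 0.0472), and so did Vim (0.13, SE 0.0262).

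The genes that build ribosomes moved the other way from the ribosomal proteins. Of 57 biogenesis factors 45 were higher, 6 lower and 6 did not pass, beside 36.7% of all genes tested in each direction. Their median was 0.59, and 11 were called higher at a fold change over 2, beside 10.2% of all genes tested. Rrp12, a factor of pre-ribosome export, was at 23.4, 28.6 and 26.1 in WT and 131, 117 and 129 in KD (2.27, SE 0.0597, adjusted p = 4.62e-27, edgeR). Rrs1, which helps to load the 5S particle, rose by 1.73 (SE 0.0542). The largest falls were those of Nop10, a small subunit of the pseudouridylation particle (−1.09, SE 0.0582), and Emg1, a methyltransferase of 18S rRNA (−0.50, SE 0.0463).

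RNA polymerase I and its factors were higher in 10 of 14 genes and lower in 2, with a median of 0.52. Among all genes tested, 36.7% were higher and 36.7% lower. Polr1b, its second largest subunit, was at 37.6, 44.1 and 41.3 in WT and 124, 119 and 119 in KD (1.56, SE 0.0521), and Taf1c, a factor of its promoter, rose by 0.83 on the log2 scale. Polr1d (−0.32, SE 0.0506) and Polr1c (−0.15, SE 0.0587), which RNA polymerase III shares, were lower. Chaperones and importers of ribosomal proteins were higher in 8 of 11 genes and lower in 2 (median 0.40), led by Grwd1 (1.42, SE 0.0587) and Heatr3 (0.86, SE 0.0475), the carrier of Rpl5. Aamp (−0.70, SE 0.0411) and Ipo9 (−0.32, SE 0.0335) were lower.

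The regulators went both ways, and so did all genes tested. Of 19 genes of the mTOR, LARP1 and MYC list 8 were higher and 6 lower, with a median of 0.07. Over all genes tested 36.7% were higher and 36.7% lower, so the counts of this list stand near that share. The list holds activators and inhibitors together, so its counts give no direction for the pathway. Mtor (0.64, SE 0.0461), Rptor (0.64, SE 0.0457), Rheb (0.56, SE 0.0448) and Akt1s1 (0.40, SE 0.0571) were higher. Tsc1 (−0.42, SE 0.0485), Tsc2 (−0.80, SE 0.0505), Rps6kb1 (−0.41, SE 0.0419) and Rps6kb2 (−0.26, SE 0.106) were lower. Myc was at 194, 188 and 202 in WT and 368, 355 and 380.0 in KD (0.92, SE 0.0363), and Larp1 at 333, 354 and 344 against 582, 598 and 577 (0.77, SE 0.0329). Mlst8, a subunit of both mTOR complexes, rose by 1.28 (SE 0.0864). Ddit4, an inhibitor of mTOR complex 1 induced by stress, was at 157, 149 and 155 in WT and 59.0, 53.3 and 58.3 in KD (−1.44, SE 0.0462), and Castor1, an arginine sensor, fell by 1.01 on the log2 scale (SE 0.118).

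Ribosome quality control genes were lower in 7 and higher in 6 of 16, with a median of −0.03. This was near the share of all genes tested, 36.7% in each direction. Ascc3, a helicase that splits collided ribosomes, rose by 1.31 (SE 0.0464) and Usp10, a deubiquitinase of small-subunit proteins, by 0.87 (SE 0.0444). Ankzf1, which releases stalled chains, was lower (−1.44, SE 0.0875), and so was Edf1, a sensor of collisions (−0.71, SE 0.0391).

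Mitochondrial ribosomal proteins, which form a separate ribosome, had no shift of that size. Of 78 genes 35 were lower, 26 higher and 17 did not pass, beside 36.7% of all genes tested in each direction. The median was −0.07, beside −0.50 for the cytosolic genes. The largest falls were those of Mrps21 (−1.10, SE 0.0708) and Mrpl14 (−1.04, SE 0.0669), and the largest rises those of Mrpl36 (0.59, SE 0.0718) and Mrps30 (0.59, SE 0.0589). The difference between the lists was not tested.

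**Figure D3:**
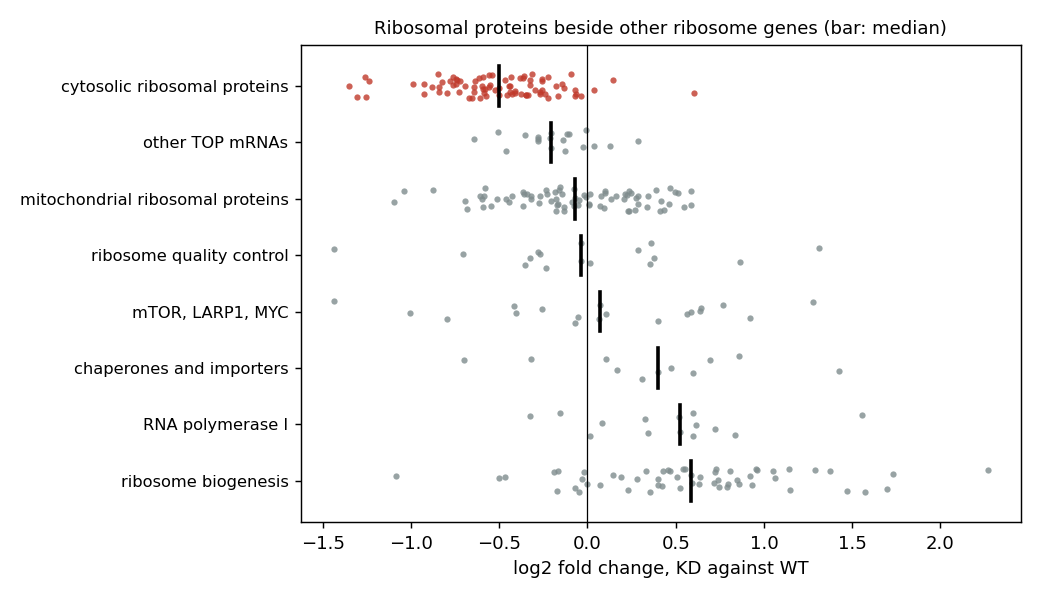
Log2 fold change, KD against WT (x axis), of every tested gene in the ribosomal protein list (red) and in 7 other lists of ribosome genes (grey), with list medians as black bars. The medians run from −0.50 for cytosolic ribosomal proteins over −0.07 for mitochondrial ones to 0.59 for ribosome biogenesis.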

How the data were processed

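RNA was sequenced in 3 KD and 3 WT libraries. Per the paper's methods the authors mapped reads to hg19 with HISAT2, while the submitters' processing notes name hg38, HISAT2, featureCounts and DESeq2. Neither the annotation nor a strand setting is given in the sources used here, and the kits named by the labels and the paper differ. The deposited values are whole-number counts per gene without normalization, for 22989 genes, of which 583 had no count. Columns of values not used number 0.

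The model, in edgeR 4.0.16 (R 4.3.3), held the group alone. It used filterByExpr (minimum count 10, minimum total 15), TMM scaling and edgeR's quasi-likelihood test, and p-values of 13497 genes were adjusted by Benjamini-Hochberg. Thresholds were an adjusted p under 0.05 and, for called genes, a fold change over 2. Standard errors came from the fold change and the F statistic of each gene. Levels were not ranked between genes, and shares of a pair are shares of counts, not per length. On simulated counts for these 13497 genes, 199 of 200 changed genes were recovered, with 4 unchanged genes called. The changed genes were well counted, and their fold changes and the dispersion were set in advance. In the data 36.7% of genes passed as lower and 36.7% as higher, far more than were changed there. The simulation thus does not give the rates of recovery or false calls of this comparison.

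Alternatives were other scalings, other filters, DESeq2 1.42.0, a replicate block, each replicate left out, and a test against a fold change of 1.2. Leaving out the like-named genes and computing TMM without the members were chosen after seeing the data. The members, lists and tests were chosen with earlier results of these data known. Genes were named by a rule: called members, the 6 largest falls and rises, paralog pairs, members of known role, members under the filter, and the 2 largest rises and falls in each other list. Other genes, such as Rps7, Rps14, Rpl6, Rpl8, Rpl27, Rpl32, Rpl34, Larp1, Mtor, Tsc2, Rpl6l and Rpl32l, were chosen after their values were seen. 1 gene counted in the lists is left unnamed.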

Additional observations from a re-analysis of the deposited data

How the results depend on the processing

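The lower members outnumbered the higher ones under every alternative run for these counts, and the median kept its direction under the scalings, filters, replicate block, DESeq2 and leave-one-out settings run for it. Members lower numbered 61 (test against a fold change of 1.2) to 80 (upper quartile), and 74 to 77 when a replicate was left out. Members higher were 1 to 2 when a replicate was left out, 2 without WT replicate 3, where Rpl22l1 joined Rpl36al, and 0 without the like-named genes. Called lower were 5 to 6 genes, called higher 0. The median of −0.50 became −0.55 with upper-quartile scaling, −0.54 without the like-named genes, and −0.53 to −0.48 when a replicate was left out. With the replicate number as a block (replicate block), 75 members were lower and 1 higher with a median of −0.50. Same-numbered libraries did not deviate together (correlations of 0.0421, −0.0147 and −0.0214), so the main model did not pair them. The labels do not say whether they were prepared together, and these correlations cannot show it. The ratio of shares had 1 alternative, without the 10 most abundant other genes, and was then 0.709. Of the values of single named genes under alternatives, 421 stayed on their side of the threshold, 5 gained it and 9 lost it, 7 of them for Rps6, and 0 reversed.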
